A study of Mus musculus with 18 samples.

Results

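The genes described here are 10 genes of the ATF4 amino-acid and stress response, *Atf4*, *Ddit3*, *Trib3*, *Asns*, *Chac1*, *Sesn2*, *Psat1*, *Phgdh*, *Slc7a11* and *Ddit4*. They were chosen by name, as the rows of the expression tables whose Ensembl identifiers map to these symbols, and all 10 were found among 19153 genes. RNA of polyadenylated transcripts was sequenced from immortalized mouse myoblasts, 18 libraries in 6 groups of 3 replicates. All cells came from a p53 knockout mouse and therefore lack p53 in every group. Knockout (KO) cells were transfected with a Cas9 plasmid carrying an sgRNA against LAP2α, a nucleoplasmic protein encoded by *Tmpo*, and were sorted as a pool and not as a clone. Wildtype (WT) cells received the Cas9 plasmid without sgRNA and are wildtype for LAP2α only. Each genotype was taken while proliferating below confluence (Prol), on reaching confluence in the same 20% serum (D0), and after 48 hours in 5% serum, on day 2 of differentiation (D2). The replicates are not described as separate cultures in the labels, so that p-values measure the spread between these samples, which may be technical.

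ATF4 is a transcription factor of the bZIP family that is made mainly by translational control. When amino acids run short, misfolded protein collects in the endoplasmic reticulum or haem is lacking, kinases phosphorylate the initiation factor eIF2α, which lowers translation in general but raises that of the *Atf4* mRNA. ATF4 then binds composite C/EBP-ATF elements and raises genes for amino-acid synthesis and uptake, tRNA charging and glutathione supply, and, under lasting stress, the gene for the pro-apoptotic factor CHOP (*Ddit3*). The mRNA level of *Atf4* is therefore only in part a measure of its activity, and protein was not measured in these libraries.

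Library totals recovered from the deposited values ranged from 26437823 to 41619015 expected counts (median 32939620), at which 3 counts correspond to between 0.0651 and 0.119 CPM (read counts scaled to a common library size by the authors). All 10 genes had at least 10 CPM in every library, so depth does not limit these values. *Tmpo*, which is counted here over all its isoforms, was at 310, 275 and 315 CPM in WT Prol and at 250, 228 and 260 CPM in KO Prol. In each state it was lower in KO for all 3 replicate numbers, but the difference did not pass the test (Prol log2 fold change -0.28, limma adjusted p = 1), and it does not separate LAP2α from the other isoforms. Of the myoblast and myotube markers looked up, 7 of 8 were in the tables, and *Pax7* was not found there. The summed level of those found was 32.3 to 64.1 CPM in the Prol and D0 libraries and 1031 to 3149 CPM at D2. At D2 it was 1657 to 3149 CPM in WT and 1031 to 1191 CPM in KO. In Prol libraries *Myod1* was between 0.736 and 5.88 CPM and *Myf5* between 20.5 and 27.4 CPM, so that the myoblast label rested mainly on *Myf5* before differentiation. The 5 fibroblast markers summed to 52.6 to 135 CPM in Prol and D0 libraries and to 215 to 419 CPM at D2. Markers of endothelial cells (3 of 4 in the tables), immune cells (2 of 4), adipocytes (2 of 4) and glia (3 of 4) were low. The highest of their sums in any library was 8.004 CPM, for the immune markers in KO D0. The part of these markers in the changes at D2 was not tested, and in bulk RNA fewer cells of a type and less RNA per cell cannot be told apart.

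The promoters of 4 of the 10 genes hold the core of the composite element to which ATF4 binds. The letters TGATGNAA were searched on both strands of windows from 250 bases before to 50 bases after each RefSeq start site (GRCm38.p6), and were found 5 times in 4 of 11 windows of the 10 genes, against 3.97% of all 32851 windows. The matches are shown because they lie in genes that moved differently at D2, with *Asns* and *Slc7a11* among those that fell and *Trib3* and *Chac1* among those that did not pass the test. Each is written 5′ to 3′ on the strand of its gene with the matched letters in capitals, and a window reading TTNCATCA holds the element in the opposite orientation.
Asns, chr6:7693214-7693243: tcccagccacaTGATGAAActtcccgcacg
Slc7a11, first match, chr3:50443661-50443690: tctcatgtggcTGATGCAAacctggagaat
Slc7a11, second match, chr3:50443642-50443671: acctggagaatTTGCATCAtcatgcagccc
Chac1, chr2:119351038-119351067: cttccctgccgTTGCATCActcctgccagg
Trib3, chr2:152344028-152344057: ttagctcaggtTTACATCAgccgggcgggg
The *Asns* match starts 23 bases before its start site, those of *Slc7a11* 66 and 47 bases before, that of *Chac1* 193 bases before, and that of *Trib3* at base 15 of the transcript, all counted from RefSeq start sites. The gene ends given below are those of GENCODE and differ from these, so that by them the *Trib3* match lies outside the gene and the *Asns* match inside it. *Slc7a11* was the gene with a match in each orientation, in overlapping windows. Windows of the other genes held none of these letters, which says nothing of elements elsewhere. A match is a description and not a bound site.

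*Atf4* (chr15:80255184-80257541 on the plus strand, GRCm38 with the GENCODE M21 annotation) encodes the factor itself. It was at 306, 389 and 480 CPM in the 3 WT Prol libraries and at 324, 418 and 425 CPM in KO Prol. At D0 it was at 371, 455 and 435 CPM in WT and at 423, 385 and 441 CPM in KO. At D2 the values were 339, 290 and 237 CPM in WT and 268, 298 and 265 CPM in KO. The KO D2 libraries all lay below the KO Prol libraries, while in WT the highest D2 library lay above the lowest Prol library. The log2 fold change from Prol to D2 was -0.43 in WT (standard error 0.20, limma adjusted p = 0.121, Benjamini-Hochberg over all genes tested) and -0.48 in KO (standard error 0.20, limma adjusted p = 0.0818), and neither passed the threshold of an adjusted p under 0.05. With the replicate number as a block, which pairs the libraries of KO Prol and KO D2, the adjusted p in KO was 0.0284. Per kilobase of exon, the mean of *Atf4* was the third highest of the 10 genes in the Prol and D0 groups and the highest in both D2 groups. It was 122 CPM per kb in WT D2 (101 to 144 over the libraries) and 117 CPM per kb in KO D2 (112 to 126). These ranges overlapped those of *Phgdh*, which were 65.7 to 143 CPM per kb in WT D2 and 82.9 to 119 in KO D2.

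**Figure D1:**
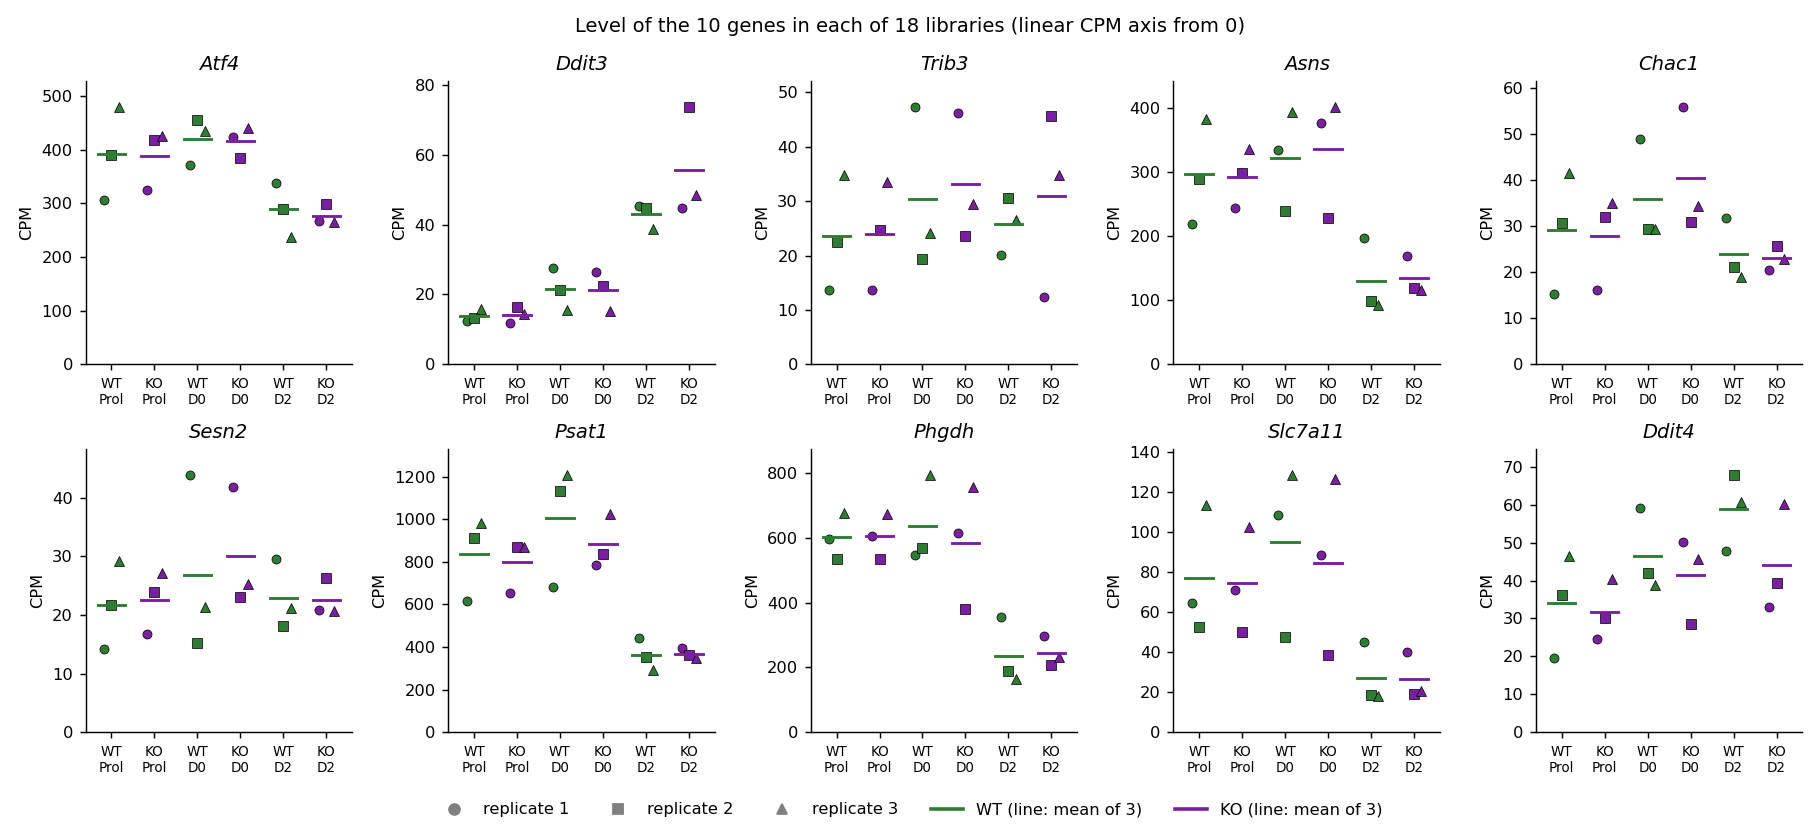
Level of each of the 10 genes in CPM (linear axis) in every library, by state (Prol, D0, D2) and genotype (WT and KO), with a point for each library and a bar for the mean of 3. *Ddit3* rises from Prol to D2 in both genotypes, while *Asns*, *Psat1*, *Phgdh* and *Slc7a11* fall, and WT and KO points overlap in every state.

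Between proliferation and day 2 of differentiation, 5 of the 10 genes passed the test in WT and 5 in KO, *Ddit3* higher and *Asns*, *Psat1*, *Phgdh* and *Slc7a11* lower. Over all 17672 genes tested, 30.7% passed in WT D2/Prol (16.6% higher and 14.1% lower) and 32.3% in KO D2/Prol (17.1% higher and 15.2% lower). The median log2 fold change of the 10 genes was -0.32 in WT and -0.34 in KO, against -0.01 and 0.02 over all genes tested. It stands between changes in opposite directions, which reached -1.57 and 1.65 in WT and -1.52 and 1.95 in KO.

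*Psat1* and *Phgdh* encode enzymes of serine synthesis from a glycolytic intermediate, with phosphoglycerate dehydrogenase (*Phgdh*) at the first step. *Phgdh* (chr3:98313170-98339990, minus strand) was at 596, 536 and 677 CPM in WT Prol and at 356, 189 and 163 CPM in WT D2. In KO it was at 607, 535 and 673 CPM in Prol and at 297, 206 and 234 CPM in D2. All D2 libraries lay below all Prol libraries of their genotype. The log2 level of *Phgdh* fell by 1.43 in WT (standard error 0.30, 2.70-fold lower, limma adjusted p = 0.00184) and by 1.31 in KO (standard error 0.30, 2.48-fold lower, limma adjusted p = 0.00335). A pseudogene, *Phgdh-ps1*, is counted as a separate gene in the tables, so that reads shared with it are split by the authors' estimation.

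*Psat1* (chr19:15904678-15947337, minus strand) encodes phosphoserine aminotransferase, the enzyme after *Phgdh*. It was at 618, 911 and 982 CPM in WT Prol and at 440, 353 and 290 CPM in WT D2, without overlap. KO values were 655, 870 and 871 CPM in Prol and 393, 362 and 350 CPM in D2. The log2 level of *Psat1* fell by 1.21 in WT (standard error 0.26, limma adjusted p = 0.00234) and by 1.11 in KO (standard error 0.26, limma adjusted p = 0.00408).

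*Asns* (chr6:7675169-7693254, minus strand) encodes asparagine synthetase and is the standard reporter gene of amino-acid starvation. Its levels were 220, 290 and 383 CPM in WT Prol against 198, 98.2 and 92.7 CPM in WT D2, where replicate 1 was the highest. In KO they were 244, 298 and 337 CPM in Prol against 169, 119 and 116 CPM in D2, again with replicate 1 the highest at D2. The fall of *Asns* was 2.38-fold in WT (log2 fold change -1.25, standard error 0.32, limma adjusted p = 0.00700) and 2.19-fold in KO (log2 fold change -1.13, standard error 0.32, limma adjusted p = 0.0124). Without KO Prol replicate 3, the adjusted p in KO was 0.0543.

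*Slc7a11* (chr3:49892526-50443614, minus strand) encodes xCT, the subunit of the cystine/glutamate antiporter that supplies cysteine for glutathione. It was at 64.5, 52.8 and 114 CPM in WT Prol and at 44.9, 18.5 and 17.9 CPM in WT D2. In KO Prol it was at 71.3, 50.04 and 103 CPM and in KO D2 at 40.2, 18.99 and 20.4 CPM. Replicate 1 was more than 1.5-fold above the others at D2 in both genotypes, yet stayed below every Prol library. The log2 level of *Slc7a11* fell by 1.57 in WT (standard error 0.51, 2.96-fold lower, limma adjusted p = 0.0273) and by 1.52 in KO (standard error 0.51, 2.87-fold lower, limma adjusted p = 0.0305). It had the largest standard error of the 10 genes, and its call rested on single libraries. In WT the adjusted p was 0.130 without Prol replicate 3, 0.0963 without D2 replicate 2 and 0.107 without D2 replicate 3, and in KO it was 0.0704 without Prol replicate 1, 0.126 without Prol replicate 3, 0.110 without D2 replicate 2 and 0.0955 without D2 replicate 3. The block gave 0.00176 in KO.

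*Ddit3* (chr10:127290774-127296288, plus strand) encodes CHOP, a bZIP factor induced by ATF4 that is also known to hold back differentiation programmes by pairing with C/EBP factors. It went the other way. *Ddit3* was at 12.3, 13.1 and 15.8 CPM in WT Prol and at 45.3, 44.9 and 38.7 CPM in WT D2. The KO libraries had 11.9, 16.5 and 14.3 CPM in Prol and 44.9, 73.8 and 48.6 CPM in D2, where replicate 2 was the highest of all 18 libraries. *Ddit3* rose 3.14-fold in WT (95% interval 2.16 to 4.56, limma adjusted p = 0.000135) and 3.86-fold in KO (95% interval 2.66 to 5.61, limma adjusted p = 2.97e-05). The call held without each library in turn. *Ddit3* overlaps *Mars* and *Gm4189* on the opposite strand, and the library kit and the authors' counting separate the strands. A second gene annotated under the name *Ddit3* overlaps it on the same strand and is not in the tables. Reads shared with that gene are not separated by strand.

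*Trib3* (chr2:152337422-152344032, minus strand) encodes a pseudokinase that CHOP and ATF4 induce and that restrains them in turn. It was at 13.6, 22.4 and 34.8 CPM in WT Prol, 20.1, 30.6 and 26.6 CPM in WT D2, 13.6, 24.7 and 33.5 CPM in KO Prol and 12.3, 45.7 and 34.8 CPM in KO D2. These groups overlapped, and the 2.56-fold range within WT Prol was wider than the difference between the means. The log2 fold change was 0.21 in WT (95% interval -0.83 to 1.25, limma adjusted p = 0.795) and 0.26 in KO (95% interval -0.78 to 1.31, limma adjusted p = 0.734).

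*Chac1* (chr2:119351229-119354381, plus strand) encodes a glutathione-degrading enzyme and is a sensitive target of the ATF4 and CHOP axis. Its WT levels were 15.3, 30.7 and 41.6 CPM in Prol and 31.7, 21.2 and 19.01 CPM in D2. Its KO levels were 16.1, 32.1 and 35.1 CPM in Prol and 20.6, 25.8 and 22.8 CPM in D2. In each Prol group replicate 1 was far below the other libraries, and with it the groups overlapped. *Chac1* did not pass the test (log2 fold change -0.20 in both, limma adjusted p = 0.734 in WT and 0.742 in KO), with a 95% interval of the fold from 0.501 to 1.51 in WT. Without replicate 1 of every group, *Chac1* was lower at D2 in WT (log2 fold change -0.83, limma adjusted p = 0.00560), but did not pass in KO (log2 fold change -0.47, limma adjusted p = 0.0612).

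*Sesn2* (chr4:132492032-132510501, minus strand) encodes sestrin 2, a leucine sensor that holds back mTORC1. *Sesn2* was at 14.2, 21.8 and 29.3 CPM in WT Prol and at 29.6, 18.1 and 21.1 CPM in WT D2, and at 16.8, 23.8 and 27.2 CPM in KO Prol and 20.8, 26.3 and 20.7 CPM in KO D2. The groups overlapped in both genotypes. Its log2 fold change was 0.11 in WT (95% interval -0.67 to 0.88) and 0.02 in KO (95% interval -0.76 to 0.79), with limma adjusted p-values of 0.863 and 0.977. The gene overlaps *Gm12981* on the same strand, which is also in the tables, so that its count is less certain.

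*Ddit4* (chr10:59949669-59951834, minus strand) encodes REDD1, which restrains mTORC1 and also responds to hypoxia and glucocorticoids. *Ddit4* was at 19.7, 36.3 and 46.4 CPM in WT Prol and at 47.9, 68.0 and 60.7 CPM in WT D2, so that every WT D2 library lay above every WT Prol library. In KO it was at 24.7, 30.1 and 40.4 CPM in Prol and at 33.0, 39.4 and 60.2 CPM in D2, and the groups overlapped. The log2 fold change was 0.86 in WT (95% interval 0.17 to 1.55) and 0.46 in KO (95% interval -0.23 to 1.15). In WT the adjusted p of 0.0557 from limma missed the threshold narrowly and was 0.0444 with median-of-ratios scaling, 0.0358 with library totals, 0.0489 among genes with at least 10 CPM, 0.0474 without D2 replicate 1 and 0.0292 without Prol replicate 3. It stayed over the threshold with log2(CPM + 1) (0.0546), voom weights (0.0571), no filter (0.0594) and only the groups compared (0.0905), without D2 replicate 2 (0.159) or 3 (0.129) and without Prol replicate 2 (0.0745). Without Prol replicate 1, the lowest WT library, the log2 fold change of *Ddit4* was 0.51 and the adjusted p 0.274, and without replicate 1 of every group they were 0.65 and 0.0923. In KO the adjusted p was 0.312.

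**Figure D2:**
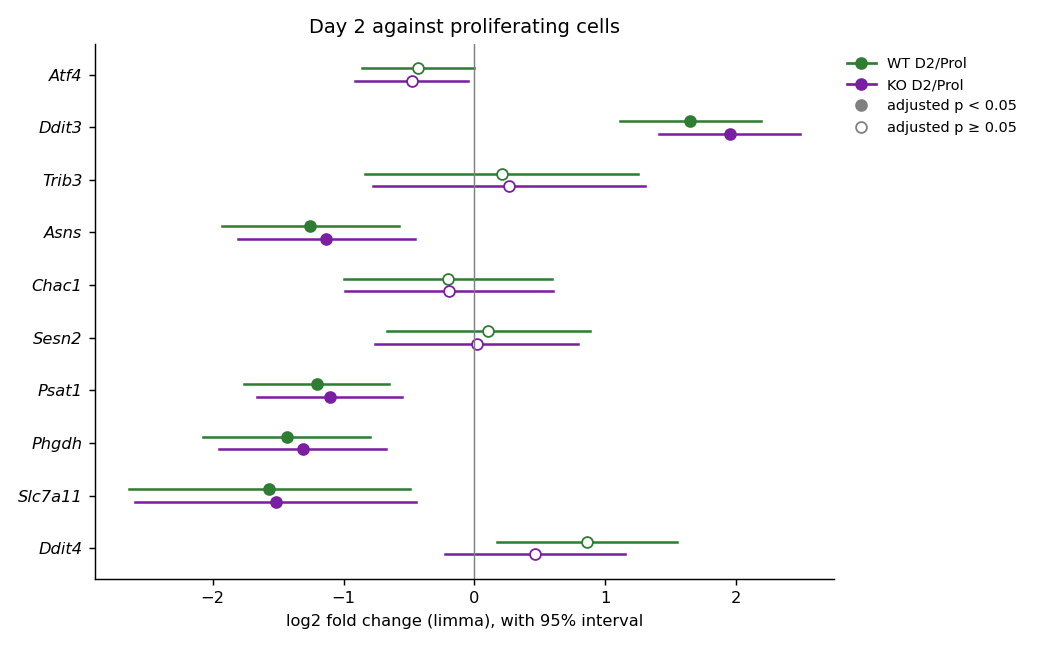
Fitted log2 fold change of each gene from Prol to D2 (horizontal axis) with its 95% interval, in WT and in KO, filled where the adjusted p was under 0.05. The 5 filled points of each genotype are *Ddit3* to the right of 0 and *Asns*, *Psat1*, *Phgdh* and *Slc7a11* to the left, and the interval of every gene in WT overlaps that in KO.

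Counted by overlap of the libraries alone, 2 of the 10 genes had all WT D2 libraries above all WT Prol libraries (*Ddit3* and *Ddit4*) and 4 had them below, where 23% and 20.5% of all genes did. In KO 1 gene lay above and 5 below (with *Atf4*), against 25.1% and 22.6% of all genes. By the second call, which asks for an unadjusted p under 0.05, a change over 1.5-fold and 10 CPM or more in at least 1 library, 6 of the 10 genes passed in WT, where 23.6% of all genes did, and 5 in KO, where 24.9% did.

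Compared with confluent cells (D0) in place of proliferating cells, 5 of the 10 genes passed at D2 in WT and 6 in KO, the latter with *Atf4*. In WT D2/D0, 26% of all genes passed (14.7% higher and 11.3% lower), and in KO D2/D0 28.3% (15.3% higher and 12.9% lower). *Ddit3* rose 2.05-fold in WT and 2.61-fold in KO from the D0 values of 27.5, 21.2 and 15.7 CPM in WT and 26.5, 22.5 and 15.2 CPM in KO (limma adjusted p = 0.00666 and 0.000733). D2 values of *Ddit3* lay above every D0 value in both genotypes.

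*Psat1* was at 681, 1132 and 1209 CPM in WT D0 and at 786, 835 and 1025 CPM in KO D0, and from there fell by 1.46 and 1.25 in log2 level (limma adjusted p = 0.000657 and 0.00202). *Phgdh* was at 547, 568 and 796 CPM in WT D0 and at 616, 379 and 758 CPM in KO D0, and fell by 1.499 and 1.21 (limma adjusted p = 0.00162 and 0.00673). *Asns* was at 334, 240 and 395 CPM in WT D0 and at 377, 229 and 402 CPM in KO D0, and fell by 1.38 and 1.30 (limma adjusted p = 0.00456 and 0.00620). In these 3 genes of amino-acid synthesis every D2 library lay below every D0 library of its genotype.

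*Slc7a11* varied widely at D0, with 109, 47.5 and 129 CPM in WT and 88.5, 38.7 and 127 CPM in KO, where the lowest D0 library was below the highest D2 library of KO. From D0 to D2 it fell 3.55-fold in WT and 3.03-fold in KO (limma adjusted p = 0.0141 and 0.0267). Its call was lost without D0 replicate 3, D2 replicate 2 or D2 replicate 3 in WT (adjusted p = 0.0755, 0.0552 and 0.0631) and in KO (0.141, 0.0981 and 0.0843), and in KO also without D0 replicate 1 (0.0729).

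The log2 level of *Atf4* fell by 0.59 from D0 to D2 in KO (standard error 0.20, limma adjusted p = 0.0391), where all D2 libraries lay below all D0 libraries. In WT its log2 fold change was -0.55 (standard error 0.20, limma adjusted p = 0.0551), also without overlap of the libraries. The adjusted p in WT was 0.0430 among genes with at least 10 CPM, 0.0412 without D0 replicate 1 and 0.0343 without D2 replicate 1. It was 0.0117 without replicate 1 of every group, 0.0156 with the replicate block and 0.0150 with the block and voom weights. The remaining alternatives left it uncalled in WT. The call of *Atf4* in KO was lost without D0 replicate 1 (adjusted p = 0.0811), D0 replicate 3 (0.125), D2 replicate 1 (0.0857), D2 replicate 2 (0.0615) or D2 replicate 3 (0.104), with library totals (0.0629) and with only the groups compared (0.148). *Trib3*, *Chac1*, *Sesn2* and *Ddit4* did not pass in either genotype, with log2 fold changes of -0.15, -0.58, -0.11 and 0.35 in WT and -0.24, -0.76, -0.37 and 0.08 in KO. All *Chac1* libraries of KO D2 lay below those of KO D0. By overlap alone, 1 of the 10 genes lay above and 5 below in WT D2/D0, where 18.7% and 14.5% of all genes did, and 1 above and 5 below in KO D2/D0, where 20.2% and 16.5% did.

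The comparison of confluent with proliferating cells asks what confluence does before serum is lowered. None of the 10 genes passed the test in WT D0/Prol or in KO D0/Prol with limma, where 0.00566% and 0% of all genes passed. At an unadjusted p under 0.05, 1 gene was counted in each, *Ddit3*, at 1.53-fold in WT (95% interval 1.05 to 2.22) and 1.48-fold in KO (95% interval 1.02 to 2.15), with a limma adjusted p of 1 in both. At this threshold 384 of the 17672 genes were counted in WT and 198 in KO. By the second call *Ddit3* in WT was the 1 gene of the 10 that passed, where 0.226% of all genes passed in WT, and none passed in KO, where 0.108% did. The remaining genes in WT had log2 fold changes of 0.06 to 0.51, and those in KO lay between -0.10 for *Phgdh* and 0.57 for *Chac1*.

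The spread between replicates was patterned. In both WT Prol and KO Prol, replicate 1 was the lowest library in 8 of the 10 genes. At D0 replicate 1 was instead the highest library in 5 of the 10 genes in each genotype, *Ddit3*, *Trib3*, *Chac1*, *Sesn2* and *Ddit4*. At D2 it was the highest in 8 genes and the lowest in 2 in WT, and the highest in 4 and the lowest in 4 in KO. No such count over all genes is given here. For *Trib3*, replicate 1 was 13.6 CPM in both Prol groups and 47.4 and 46.3 CPM in WT D0 and KO D0. *Sesn2* had 14.2 and 16.8 CPM in replicate 1 of Prol and 43.9 and 41.8 CPM in replicate 1 of D0. Replicates 2 and 3 of D0 had 19.4 to 29.4 CPM of *Trib3* and 15.1 to 25.3 CPM of *Sesn2*. Median ratios of replicate 1 to the mean of the others over the 10 genes were 0.653 in WT Prol, 0.761 in KO Prol, 1.35 in WT D0, 1.27 in KO D0, 1.44 in WT D2 and 0.919 in KO D2. Leaving out replicate 1 of every group, an alternative chosen after the data were seen, gave 7 of the 10 genes in WT D2/Prol, where 36% of all genes then passed, and 6 in KO D2/Prol, where 36.9% did, with *Atf4* among them in both (log2 fold change -0.72 and -0.58, limma adjusted p = 0.0145 and 0.0347). What the libraries numbered 1 shared was not tested, and the sequencing lane that the study took as a batch is not in the labels.

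The comparison of KO with WT cells asks whether the loss of LAP2α alters these genes. With limma, 0 of the 10 genes passed in Prol, at D0 or at D2, where 0.00566%, 0% and 0% of all genes passed, and 0 of the 10 had an unadjusted p under 0.05 in any state, where 1.11%, 1.47% and 1.96% of all genes had. With the replicate block, the count was also 0 in each state. By the second call, which uses an unadjusted p, 0 of the 10 genes passed in any state. Over all 17672 genes, 16 passed it in Prol, 34 at D0 and 87 at D2, as counted with library totals. The paper, whose criteria also use an unadjusted p, reported genes that differed between KO and WT in Prol and at D2. The 10 genes lay between -0.05 and 0.09 on the log2 scale in Prol, between -0.21 and 0.26 at D0 and between -0.45 and 0.34 at D2. The libraries of KO and WT overlapped for all 10 genes in each state, where 4.41%, 3.02% and 6.17% of all genes did not overlap.

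The largest differences at D2 were those of *Ddit4* and *Ddit3*. *Ddit4* was lower in KO for all 3 replicate numbers at D2, at 33.0, 39.4 and 60.2 CPM against 47.9, 68.0 and 60.7 CPM in WT, but replicate 3 was nearly equal. Its log2 fold change was -0.45 (95% interval -1.13 to 0.24, limma adjusted p = 1). *Ddit3* was higher in KO in 2 of 3 pairs, mainly in replicate 2, with a log2 fold change of 0.34 (95% interval -0.19 to 0.88, limma adjusted p = 1).

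These intervals do not show that the genotypes are alike, but they bound the difference in the fit without the replicate block. Same-numbered WT and KO libraries deviated together in every state, with correlations across genes of 0.276 to 0.645 at D2. Intervals with the block are not given here. For *Atf4*, the fold of KO over WT at D2 was 0.969 (95% interval 0.720 to 1.30). It was 1.03 for *Psat1* (0.703 to 1.52), 1.09 for *Phgdh* (0.702 to 1.70) and 1.09 for *Asns* (0.682 to 1.74). For *Sesn2* (0.585 to 1.71), *Chac1* (0.566 to 1.70), *Trib3* (0.515 to 2.19) and *Slc7a11* (0.482 to 2.14) the intervals were wider. In Prol the intervals of *Atf4* ran from 0.744 to 1.35 and of *Slc7a11* from 0.466 to 2.07.

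**Figure D3:**
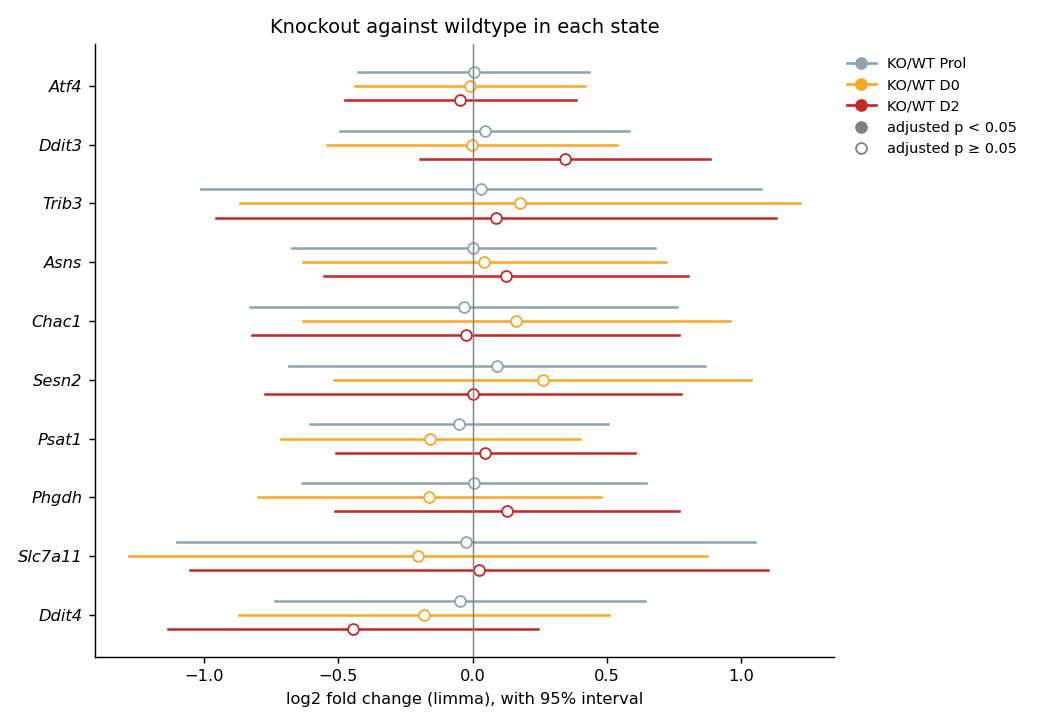
Fitted log2 fold change of KO over WT for each gene (horizontal axis) with its 95% interval, in Prol, D0 and D2. Every interval includes 0, and the points farthest from 0 are *Ddit4* at -0.45 and *Ddit3* at 0.34, both at D2.

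An interaction term tested whether the KO effect at D2 differed from that in Prol, and 0 of the 10 genes passed with limma, where 0% of all genes passed. For *Ddit4* this difference was -0.40 on the log2 scale (95% interval -1.37 to 0.58), and for *Ddit3* it was 0.30 (95% interval -0.46 to 1.06). The same term for D2 and D0 also gave 0 of the 10 genes, where 0% of all genes passed, and lay between -0.26 for *Ddit4* and 0.35 for *Ddit3*. No gene had an unadjusted p under 0.05 in either interaction. The larger fold of *Ddit3* in KO than in WT D2/Prol is therefore not shown to differ between the genotypes.

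The levels of the 10 genes can be ordered per kilobase of exon, with the length of all annotated exons of a gene joined. In WT Prol *Phgdh* was the highest at 243 CPM per kb (216 to 272 over the libraries), followed by *Psat1* at 197 (145 to 231) and *Atf4* at 166 (130 to 204), with overlapping ranges between neighbours. *Asns* followed at 109 CPM per kb (80.3 to 140) and overlapped *Atf4*. After a gap came *Ddit4* at 19.4 (11.2 to 26.4), *Chac1* at 17.8 (9.33 to 25.4), *Trib3* at 11.1 (6.39 to 16.4), *Ddit3* at 8.02 (7.17 to 9.21), *Sesn2* at 6.25 (4.08 to 8.42) and *Slc7a11* at 5.53 (3.79 to 8.16), where each range overlapped that of the next gene. In WT D2 the 3 genes of amino-acid synthesis were at 94.9 CPM per kb for *Phgdh*, 84.9 for *Psat1* and 47.4 for *Asns*, below *Atf4* at 122. The ranges of *Phgdh* and *Psat1* over the WT D2 libraries overlapped that of *Atf4*. *Ddit3* moved from the eighth place in WT Prol to the sixth in WT D2, at 25.1 CPM per kb, and to the fifth in KO D2, at 32.6 CPM per kb. *Slc7a11* was the last in all 6 groups, and its exons join to 13.9 kb, so that its place depends on which of its long transcripts are used.

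The patterns over the 6 groups fell apart into unlike shapes. Likeness was measured as the root-mean-square difference of the group means of log2 CPM, each centred on the mean of the gene, over 9475 genes with a mean of at least 10 CPM. *Asns* and *Psat1* were close to each other at 0.0679, and *Psat1* was the gene most like *Asns* among all candidates. *Trib3* and *Sesn2* were at 0.0828 from each other. *Atf4* was nearest to *Chac1* among the 10 genes, at 0.159, and farther from *Asns* at 0.358 and *Slc7a11* at 0.530. *Ddit3* was 1.32 from *Asns* and 1.49 from *Slc7a11*, and its nearest member was *Ddit4* at 0.559. The genes most like the members in the whole table, other than *Phgdh*, were *Eef1b2* and *Trnt1* for *Atf4* (0.0231 and 0.0235), *Medag* and *Sec16b* for *Ddit3* (0.0943 and 0.103), *Npr3* for *Psat1* (0.0580) and *Pms1* and *Ube2t* for *Slc7a11* (0.0832 and 0.0858). For the stress genes they were *Klhl26* and *Cryzl1* for *Trib3* (0.0728 and 0.0803), *Coq3* and *Pfkfb4* for *Chac1* (0.0827 and 0.0917), *Mcf2l* and *Ece1* for *Sesn2* (0.0566 and 0.0628) and *Nudt14* and *Ldhb* for *Ddit4* (0.0723 and 0.0885). With 6 groups these are descriptions only.

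The genes around ATF4 were looked up in 10 lists by role. Their counts at D2 stand against 30.7% of all genes called in WT D2/Prol (16.6% higher and 14.1% lower). In KO D2/Prol 32.3% of all genes were called (17.1% higher and 15.2% lower), and 8580 of 17672 genes with the replicate block. Of the 8 other genes of serine, glycine, folate and proline synthesis, 4 fell in WT D2/Prol and 4 in KO D2/Prol, with a median log2 fold change of -0.97 and -0.99, and none rose. *Shmt1*, the cytosolic enzyme that makes glycine from serine, fell by 2.02 in WT and by 2.11 in KO (limma adjusted p = 0.000137 and 9.69e-05). It was at 99.5, 78.2 and 125 CPM in WT Prol and at 34.7, 21.3 and 19.7 CPM in WT D2. *Mthfd1l*, a mitochondrial folate enzyme, fell by 1.51 and 1.45 (limma adjusted p = 0.0309 and 0.0352). *Aldh1l2* and *Pycr1* lay above 0 without passing, at 0.84 and 0.59 in WT and 1.18 and 0.75 in KO. With the replicate block 2 genes of this list were higher and 5 lower in KO. The count of 4 was 2 without WT Prol replicate 3 or WT D2 replicate 2 and 2 without KO Prol replicate 3 or KO D2 replicate 2.

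All 20 cytosolic aminoacyl-tRNA synthetase genes, which charge tRNAs with amino acids, lay below 0 in both genotypes, and 8 fell in WT and 10 in KO by the test. The median log2 fold change was -0.70 in WT and -0.82 in KO, and with library totals, which moved the median of all genes to 0.15 in WT and 0.16 in KO, 6 and 11 fell. *Vars*, for valine, fell by 1.73 in WT and by 1.70 in KO (limma adjusted p = 0.000283 and 0.000317), from 407, 327 and 386 CPM in WT Prol to 145, 92.3 and 106 CPM in WT D2. *Hars*, for histidine, fell by 1.102 and 1.19 (limma adjusted p = 0.0105 and 0.00606). The numbers depended on single libraries. In WT they were 4, 7 and 3 without Prol replicate 1, 2 or 3. They were 15, 3 and 2 without D2 replicate 1, 2 or 3. In KO they were 5 without Prol replicate 1, 3 without Prol replicate 3, 3 without D2 replicate 2 and 5 without D2 replicate 3, and 17 with the replicate block.

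Of the 9 amino-acid transporters, 2 fell in WT and 2 in KO, and 1 rose in KO. *Slc1a5*, a glutamine transporter, fell by 1.56 in WT and by 1.29 in KO (limma adjusted p = 0.000155 and 0.000745), and *Slc38a1*, another one, by 1.15 and 1.14 (limma adjusted p = 0.0452 and 0.0449). *Slc6a9*, a glycine transporter, rose in KO by 1.24 (limma adjusted p = 0.0216) and was at 0.92 in WT (limma adjusted p = 0.0841). *Slc7a5*, the leucine transporter, was at -1.005 in WT and -0.91 in KO without passing. The block gave 1 higher and 4 lower in KO. Of the 2 that fell, 1 remained in number without WT Prol replicates 2 or 3 or WT D2 replicates 2 or 3, and 4 fell without WT D2 replicate 1. In WT 1 also rose without D2 replicate 2. In KO 1 fell without Prol replicates 1 or 3 or D2 replicates 2 or 3. No transporter rose in KO without D2 replicates 1 or 2 or Prol replicates 1 or 2, so that the call of *Slc6a9* is lost there.

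Upstream of *Atf4*, 0 of the 7 eIF2α kinases, subunit and phosphatase regulators passed in WT with limma, with 3 at an unadjusted p under 0.05, as were 40.6% of all genes, and 2 in KO. *Eif2ak3*, which encodes the kinase PERK of the endoplasmic reticulum, was at 21.1, 18.04 and 15.8 CPM in WT Prol and 48.6, 23.1 and 28.4 CPM in WT D2, and at 22.0, 16.3 and 15.1 CPM in KO Prol and 61.7, 30.3 and 31.7 CPM in KO D2. The D2 libraries lay above the Prol libraries in both genotypes, and the log2 fold change was 0.80 in WT (limma adjusted p = 0.107) and 1.15 in KO (limma adjusted p = 0.0223). *Eif2s1*, which encodes eIF2α itself, fell in KO by 1.06 (limma adjusted p = 0.0494) and was at -0.86 in WT (limma adjusted p = 0.111). Neither is shown to differ between KO and WT at D2, where the log2 fold changes were 0.30 and -0.22 with an adjusted p of 1. The rise in KO was not counted without D2 replicate 1, Prol replicate 2 or Prol replicate 3, and the fall was not counted without D2 replicate 2 or any single Prol replicate. With the block 1 gene was higher and 2 were lower in KO, and with library totals *Eif2s1* was not called. In WT 1 gene of this list fell without D2 replicate 1, and 2 rose with library totals.

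Among 7 bZIP partners and co-factors, *Cebpg*, a dimer partner of ATF4, fell by 0.73 in WT and by 0.62 in KO (limma adjusted p = 0.00157 and 0.00465), and *Nupr1*, a stress-induced chromatin protein, rose by 0.94 in both (limma adjusted p = 0.00771 and 0.00752). These counts of 1 higher and 1 lower held without each library in turn. *Atf3*, a factor induced with CHOP, was at 0.44 in WT and 0.18 in KO and did not pass.

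The 16 other targets of ATF4 and CHOP had 3 higher and 2 lower in WT and 5 higher and 1 lower in KO. These counts lie near the share of all genes called, 30.7% in WT and 32.3% in KO. *Cth*, which makes cysteine, fell by 0.98 in WT and by 1.097 in KO (limma adjusted p = 0.0432 and 0.0247). *Eif4ebp1*, a translation repressor, fell by 0.81 in WT (limma adjusted p = 0.0166) and was at -0.61 in KO (limma adjusted p = 0.0627). *Fgf21*, a secreted stress factor that differentiating muscle cells are known to make, was at 0.201, 0.573 and 0.422 CPM in WT Prol and at 3.35, 3.21 and 2.88 CPM in WT D2. In KO *Fgf21* was at 0.195, 0.330 and 0.383 CPM in Prol and at 1.03, 1.399 and 1.85 CPM in D2. Its log2 level rose by 3.11 in WT and by 2.25 in KO (limma adjusted p = 0.000638 and 0.00644), and that of *Cbs*, an enzyme of cysteine synthesis at 0.297 CPM or less in Prol, by 2.26 and 1.79 (limma adjusted p = 0.00957 and 0.0327), where the size depends on the 0.5 counts added to each gene. All 3 KO D2 libraries of *Fgf21* lay below all 3 WT D2 libraries, but the change did not pass (log2 fold change -1.18, limma adjusted p = 1). The same held for *Cbs*, at 0.445 to 0.605 CPM in KO D2 and 0.717 to 1.26 CPM in WT D2 (log2 fold change -0.84). Of all genes, 6.17% had no overlap between KO and WT at D2. *Vldlr*, a lipoprotein receptor, also rose from Prol to D2 in both genotypes. With the block 8 were higher and 2 lower in KO. The higher count in KO was 2 without Prol replicates 1 or 3 or D2 replicates 1 or 2 and 3 without Prol replicate 2 or D2 replicate 3, and the lower count in KO was 1 only without Prol replicate 1 or D2 replicate 3. In WT 2 were higher without Prol replicate 1 or D2 replicate 1, and none was lower without Prol replicate 3, D2 replicate 2 or D2 replicate 3, and 1 without Prol replicate 2.

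The endoplasmic reticulum list held chaperones and genes of the ATF6 and IRE1 branches of the unfolded protein response. Of its 17 genes 1 rose in each genotype and none fell. *Dnajb9*, a co-chaperone induced by the IRE1 branch, was at 7.19, 7.73 and 7.34 CPM in WT Prol and at 28.8, 21.6 and 21.1 CPM in WT D2, and rose by 1.67 in WT and by 1.78 in KO (limma adjusted p = 1.88e-05 and 1.08e-05). *Hspa5*, which encodes the chaperone BiP, was at -0.03 in WT and -0.18 in KO, and the list had a median of -0.03 and -0.09. With the block 3 were higher and 5 lower in KO. The single rise was 2 without KO Prol replicate 2.

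Paralogs of the 10 genes were looked up by name. *Sesn3* rose by 2.67 in WT and by 2.69 in KO (limma adjusted p = 0.000206 and 0.000194), from 18.8, 13.98 and 10.96 CPM in WT Prol to 118, 70.5 and 89.7 CPM in WT D2. *Sesn1* rose by 1.13 and 1.18 (limma adjusted p = 0.00249 and 0.00175), while *Sesn2* did not pass. *Trib2* rose in WT by 1.47 (limma adjusted p = 0.0299) and was at 1.08 in KO (limma adjusted p = 0.101), where the block gave 0.00119. *Trib1* was at -0.97 and -0.89 and did not pass, with its replicate 1 at D2 (34.2 CPM in WT and 37.3 CPM in KO) far above the others (7.80 to 11.8 CPM). *Ddit4l*, at most 0.494 CPM in Prol, rose in KO by 2.26 (limma adjusted p = 0.0353) and was at 1.91 in WT (limma adjusted p = 0.0752). *Chac2* was at -0.27 and -0.22. In all, 3 of the 6 paralogs rose in WT and 3 in KO, and the number was 2 without WT Prol replicates 2 or 3 or WT D2 replicate 1, and 2 without each KO library other than D2 replicate 1. Without D2 replicate 1, 1 paralog also fell in each genotype.

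Genes that answer to other regulators of *Slc7a11* and *Ddit4* were looked up as well. Of 8 NRF2 targets, genes of the oxidative stress response that include partners of *Slc7a11* in glutathione supply, 5 fell in WT and 4 in KO and none rose. *Txnrd1*, for thioredoxin reductase, fell by 1.64 and 1.56 (limma adjusted p = 0.0120 and 0.0149). *Gclm* and *Gclc*, for the subunits of the enzyme that starts glutathione synthesis, also fell, with log2 fold changes of -1.51 and -1.39 in WT and -1.14 and -1.596 in KO (limma adjusted p from 0.000178 to 0.00373). The count in WT was 3 without Prol replicate 3, D2 replicate 2 or D2 replicate 3, and 4 without Prol replicate 1 or 2. In KO it was 3 without Prol replicate 1, D2 replicate 2 or D2 replicate 3, and 5 without D2 replicate 1. *Nfe2l2*, for NRF2 itself, was at 0.12 and 0.08. Of 9 hypoxia and glucocorticoid targets, 1 rose and 3 fell in each genotype. *Tsc22d3*, a glucocorticoid-induced gene, rose by 0.88 and 0.92 (limma adjusted p = 0.00727 and 0.00480), while *Fkbp5*, another one, fell by 1.66 and 1.63 (limma adjusted p = 0.00599 and 0.00637). *Ankrd37*, a hypoxia-induced gene, fell by 1.36 and 1.85 (limma adjusted p = 0.00822 and 0.000849). The block gave 2 higher and 5 lower in KO.

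**Figure D4:**
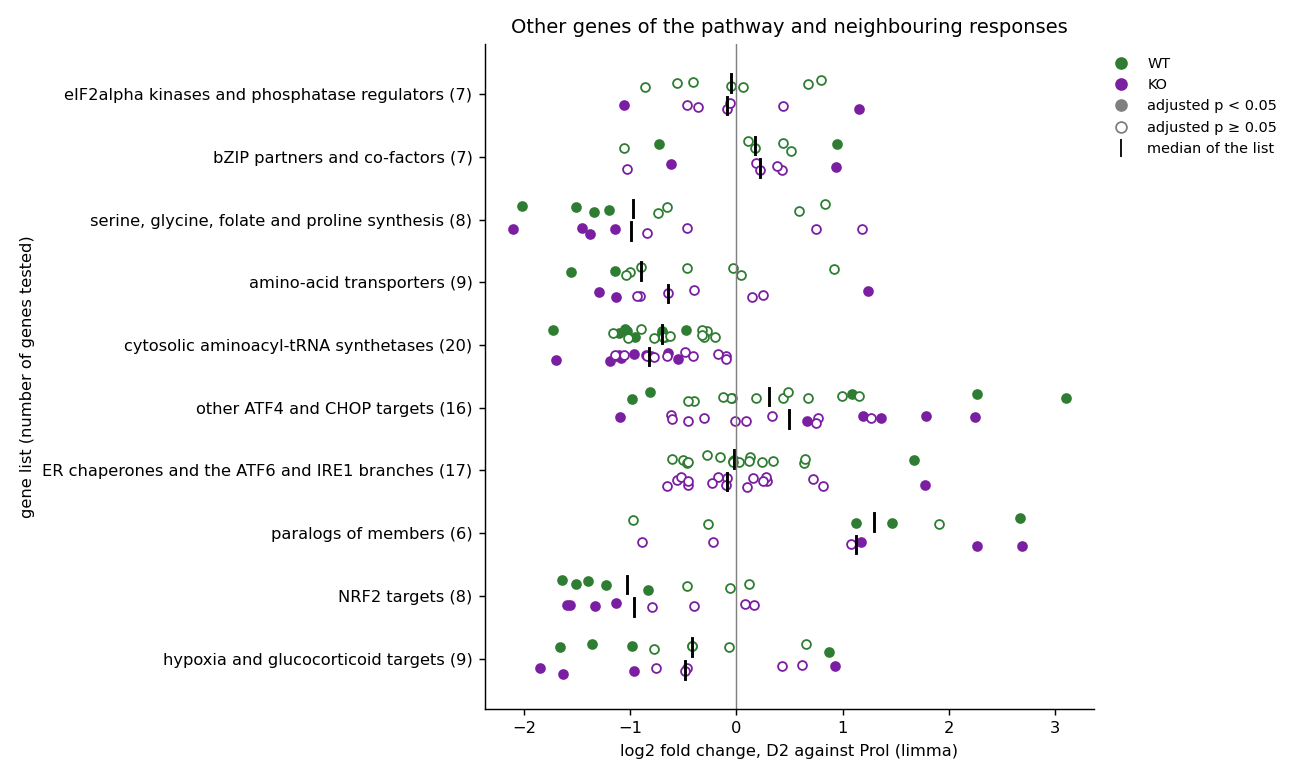
Fitted log2 fold change from Prol to D2 of each gene of the 10 lists (horizontal axis), in WT and in KO, with filled points where the adjusted p was under 0.05. All 20 aminoacyl-tRNA synthetase genes lie to the left of 0, while the paralogs *Sesn3* and *Sesn1* and the other targets *Fgf21* and *Cbs* lie to the right.

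Between KO and WT, 0 genes of each of the 10 lists passed the test in Prol, at D0 or at D2, and 0 had an unadjusted limma p under 0.05. Between D0 and Prol the count was likewise 0 in every list in both genotypes. From D0 to D2, 4 of the 8 synthesis genes fell in WT and 4 in KO, and 3 and 5 of the 20 synthetase genes did, with medians of -1.06 and -1.14 and of -0.60 and -0.66. Of all genes, 11.3% fell in WT D2/D0 and 12.9% in KO D2/D0, and the block called 8126 of 17672 genes in KO D2/D0. With single libraries left out, the synthesis genes that fell numbered 1 (without D0 replicate 3) to 4 in WT and 2 (without D0 replicate 3) to 5 in KO. The synthetase genes that fell numbered 2 (without D0 replicate 3) to 9 (without D2 replicate 1) in WT and 2 (without D0 replicate 1) to 13 (without D0 replicate 2) in KO, and the block gave 15 in KO.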

How the data were processed

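The deposited values are CPM per gene and library. Per the study's methods and the submitters' processing notes, the authors trimmed single-end, strand-specific reads with cutadapt, aligned them by NextGenMap to transcripts of GRCm38, obtained expected counts by RSEM and gene sums by tximport, dropped low genes, and applied TMM factors (edgeR) and the voom transformation (limma). The deposited CPM hold 0.5 added counts per gene, and expected counts and library totals were recovered from them. Between 34.9% and 47.2% of recovered counts under 20 were whole (tolerance 0.001), so that these are not whole reads and no count test was used. Numbers are written with decimal commas and were read as decimals.

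limma 3.58.1 in R 4.3.3 (lmFit, eBayes with a variance trend) was fitted to log2 CPM with 6 groups and 18 libraries, for the 17672 genes that exceeded 5 expected counts throughout the 3 libraries of 1 or more groups. Genes with a Benjamini-Hochberg adjusted p under 0.05 over all genes tested were said to rise or fall. The second call (unadjusted p under 0.05, more than 1.5-fold, at least 10 CPM in a library) follows the study, whose methods write 1.5 as a log2 fold change, where it was applied here as a fold. Intervals are 95% intervals of limma. Groups and replicate numbers came from the labels.

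The members, lists, markers and tests were chosen with earlier results of these data known. Named were all 10 members, *Tmpo*, all paralogs, up to 2 genes with the largest rise and 2 with the largest fall per list among those called in WT D2/Prol and KO D2/Prol, list genes passing the second call between KO and WT (none), and the 2 genes most like each member, of which those for *Phgdh* are not reported here. *Slc7a5*, *Atf3*, *Hspa5*, *Aldh1l2*, *Pycr1*, *Vldlr* and *Nfe2l2* were added after their values were seen. Same-numbered libraries deviated together from their group means, with a correlation across genes over 0.1 in 40 of 45 pairs (-0.0358 to 0.645), and in every replicate of each comparison except WT D2/Prol and WT D2/D0, where replicate 3 was at 0.0393 and 0.0100. The replicate number was therefore used as a block beside the fit without it, in KO D2/Prol and in the other comparisons.

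Alternatives were voom weights, other scalings, filters and a pseudocount of 1, the groups compared alone, the block, and each library left out. The block with voom weights and the omission of replicate 1 from all groups were chosen after seeing the data. The fit was also run on simulated data, with limits of acceptance that were loosened after the first runs. It missed part of the genes changed there, so that a gene not called may still differ. Motifs were searched in RefSeq promoter windows, and figures were drawn with matplotlib 3.10.9.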

Additional observations from a re-analysis of the deposited data

How the results depend on the processing

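Of 1880 values recomputed under the alternatives, 1649 kept their direction and their side of the threshold, 22 lost a call and 21 gained one. Another 188 changed sign, all of them in values that were called under neither setting, and 139 of these were between KO and WT or in the interactions. No called value changed sign. The calls that were lost or gained are those of *Slc7a11*, *Asns*, *Atf4*, *Ddit4* and *Chac1*. The number of the 10 genes called ranged, with each library left out in turn, from 4 to 6 in WT D2/Prol, 3 to 5 in KO D2/Prol (3 without KO Prol replicate 3), 4 to 6 in WT D2/D0 and 4 to 6 in KO D2/D0, and was 0 in every other comparison. By the second call, 1 gene was counted in WT D0/Prol in place of 0. With the replicate block, 7 genes were called in WT D2/Prol, 6 in KO D2/Prol, 6 in WT D2/D0 and 6 in KO D2/D0, and the replicate numbers do not pair the libraries of WT D2 with those of WT Prol or WT D0 for replicate 3. In WT D2/Prol the block gave an adjusted p of 0.0473 for *Atf4* and 0.0216 for *Ddit4*, and 15 synthetase genes fell. In WT D2/D0 it gave 0.0156 for *Atf4*, and 13 synthetase genes fell. Apart from these and *Atf4* in KO D2/Prol, it changed no call of the 10 genes. Over all genes the block called 8431 genes in WT D2/Prol, 8580 in KO D2/Prol, 7642 in WT D2/D0 and 8126 in KO D2/D0, against 5424, 5706, 4590 and 4997 without it. Depth did not limit the 10 genes, but *Cbs* and *Ddit4l* were near or below 3 counts in single Prol or D0 libraries. The number of 3 replicates limits every interval.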
